A study of Mus musculus with 12 samples.

Results

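The genes described here are 10 mouse genes of heterogeneous nuclear ribonucleoproteins (hnRNPs): Hnrnpa1, Hnrnpa2b1, Hnrnpc, Hnrnpd, Hnrnpdl, Hnrnph1, Hnrnpk, Hnrnpl, Hnrnpm and Hnrnpu. They were chosen by name, and a binding cluster was given to a gene where its centre lay in the gene body on mm10 and its inferred strand was that of the gene. The 10 genes held 681 of the 124941 clusters in the 3 deposited tables, with 218 of 36227 for Puf60 with exon 5, 239 of 39454 for Puf60 without exon 5 and 224 of 49260 for Rbm38. No cluster in these gene bodies lay on the opposite strand, and none lacked a p-value.

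The clusters come from iCLIP, in which ultraviolet light links proteins to the RNA they touch and the linked RNA is purified with the protein and sequenced. The line was N2A, a mouse neuroblastoma line carrying a doxycycline-inducible Flp-In transgene, and each of the 3 proteins was pulled down with an anti-Flag antibody from 3 CLIP libraries. Puf60 with exon 5 was induced for 48 h, Puf60 without exon 5 for 24 h and Rbm38 for 24 h, all with 1 µg/ml of doxycycline and 150 mJ/cm2 of light at 254 nm. Each protein had 1 size-matched input, taken without the antibody after 24 h of induction, also for Puf60 with exon 5. Where the Puf60 tables are compared, exon 5 and the length of induction cannot be told apart. The proteins were made from transgenes, so the clusters describe induced protein and not the cell's own. The tables give the authors' comparison of the CLIP libraries with the input for each cluster and no value per library, so no error over replicates can be given here and no difference between tables was tested. Depth is unknown, and how far a cluster's call depends on the abundance of its RNA was not tested.

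hnRNPs coat nascent transcripts in the nucleus and influence splicing, polyadenylation, export and decay of many RNAs. Many of them also act on transcripts of their own family, in part through exons whose inclusion or skipping exposes the RNA to nonsense-mediated decay. Puf60, a relative of the splicing factor U2af2, recognises pyrimidine-rich stretches upstream of 3′ splice sites. Rbm38 is an RNA-recognition-motif protein encoded by a p53 target gene, with known roles in mRNA stability through 3′ untranslated regions and in splicing.

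Few clusters reach the short windows around gene starts for which RefSeq sequence on GRCm38.p6 was at hand, and Hnrnph1 and Hnrnpa2b1 are shown because all 3 tables list a cluster over theirs. The first, at chr11:50377756-50377785 on the plus strand, has its longest run of C or T in capitals, the kind of stretch Puf60 is known to bind. The second, at chr11:50378301-50378330, and that of Hnrnpa2b1, at chr6:51469796-51469825 on the minus strand, have GTGTG in capitals, a motif of the GU-rich kind that Rbm38 is known to bind.
Hnrnph1 pyrimidine stretch: cgcccgcttatcaTTTCTCCTCagccacgc
Hnrnph1 GTGTG stretch: tGTGTGgacgccaggaccaccgaagggacg
Hnrnpa2b1 GTGTG stretch: cGTGTGcaggagctcctttgcggcccagtt
In the authors' deposited tables, the cluster at 50377751-50377800 over the first stretch had a log2 fold of CLIP over input of 1.22 for Puf60 with exon 5, 1.30 for Puf60 without exon 5 and 0.42 for Rbm38, and only the first of these was called enriched. The call is the authors': their p-value was 1.01e-10 with exon 5 and 4.57e-16 without it, yet the adjusted p of the second is 1 in the authors' deposited table. Such clusters, with a p under 0.05 and no call, made up 32 (14.7%), 16 (6.69%) and 44 (19.6%) of the clusters of these genes, beside 5.70%, 5.04% and 12.1% over all, and the tables do not say why. Of the 30 bases, 22 are C or T, and 64.1% of 32851 promoter windows hold a stretch with as many. The cluster that starts at 50378301 was enriched for both forms of Puf60, at 2.26 with exon 5 and 1.49 without it, and not for Rbm38, at -0.31, in the authors' deposited tables. The clusters over the stretch of Hnrnpa2b1 were enriched in none of the tables, at -0.42 with exon 5, -0.24 without it and -0.32 for Rbm38, by the authors' deposited tables. The letters GTGTG are on the sense strand of 29.1% of the windows and on either strand of 48.2%, so the match is a description of these stretches and no more. Only the part of a cluster inside the window was read. That part was 40 of 150 nt for the Puf60 clusters that start at 50378301, and 40 of 150 nt for the Rbm38 cluster of Hnrnpa2b1.

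The gene body of Hnrnpk holds a microRNA gene, Mir7-1, whose mature product is shown with its seed (bases 2 to 8) in capitals.
mmu-miR-7a-5p: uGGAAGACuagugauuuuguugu
It lies at chr13:58392841-58392863 on the minus strand, the strand of Hnrnpk. Only the table of Puf60 without exon 5 listed a cluster over it, at 58392836-58392885, and that cluster had a log2 fold of 0.17 and an adjusted p of 1 in the authors' deposited table. The hairpin is thus covered by no enriched cluster in any of the 3 tables, although enriched clusters of Hnrnpk lie on both of its sides.

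Clusters in the hnRNP genes were called enriched over input, at an adjusted p under 0.05, more often than the clusters of the whole table for both forms of Puf60, and slightly less often for Rbm38. For Puf60 with exon 5, 135 of 218 (61.9%) were enriched, beside 39.3% over all clusters with a p-value. For Puf60 without exon 5, 157 of 239 (65.7%) were enriched, beside 36.2%. For Rbm38, 109 of 224 (48.7%) were enriched, beside 51.2%. A further 19.6% of the Rbm38 clusters, beside 12.1% over all, had a p under 0.05 and no call, so the order for Rbm38 depends on the call. Among clusters on the sense strand of protein-coding genes alone, the share was 39.8%, 36.9% and 52.5% in the same order, so the genes' own background was close to that of the tables. All 10 genes lay above the share of the whole table for each form of Puf60, with the lowest at 49.1% in Hnrnpu with exon 5 and at 37.5% in Hnrnpc without exon 5. For Rbm38, 5 genes lay above it and 5 below. Hnrnpu held the most clusters of the 10 genes, and without it the shares were 66.3%, 65.2% and 52.6%, which for Rbm38 lies on the other side of 51.2%.

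**Figure D1:**
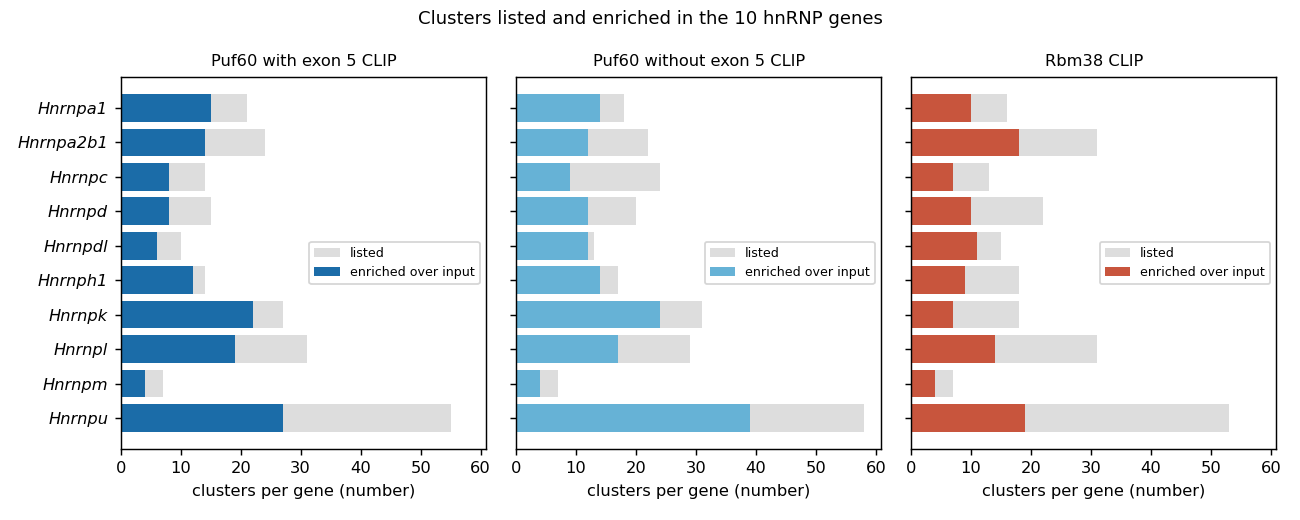
Clusters per hnRNP gene in the 3 tables. The horizontal axis counts clusters, each pale bar stands for all listed clusters and the coloured part of it for those called enriched over input (adjusted p under 0.05). Hnrnpu has the longest bars, with 27 of 55, 39 of 58 and 19 of 53 enriched, and Hnrnpm the shortest, with 4 of 7 in each table.

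The enrichment itself was moderate in size. The median log2 fold of all clusters listed in the 10 genes was 1.26 for Puf60 with exon 5, 1.12 for Puf60 without exon 5 and 0.72 for Rbm38 in the authors' deposited tables, beside 0.24, 0.11 and 1.04 over all clusters. Among the enriched clusters alone, the medians were 2.12, 1.61 and 1.62, below the 2.89, 2.80 and 2.33 of all enriched clusters in the authors' deposited tables. The hnRNP genes thus had many called clusters with smaller folds than the typical called cluster. A log2 fold above 4 was reached by 6 (4.44%), 4 (2.55%) and 6 (5.50%) of their enriched clusters, beside 16.9%, 17.3% and 8.30% of all enriched clusters. Enriched clusters were also wide, with a median of 100 nt in each table against 50 nt for all enriched clusters, and the widest listed spanned 2000, 2200 and 2250 nt. In the whole transcriptome the tables rank Hnrnpu high, at place 13 of 4478 protein-coding genes by number of enriched clusters for Puf60 with exon 5, place 5 of 4643 for Puf60 without exon 5 and place 79 of 5261 for Rbm38. Hnrnpk stood at places 26, 25 and 469, and Hnrnpl at 44, 62 and 140, where the median gene had 1, 1 and 2 enriched clusters. A longer or more highly transcribed gene offers more places for a cluster, and the part of either in these ranks was not tested.

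The A/B and D type proteins, each with a pair of RNA-recognition motifs, include the splicing repressor hnRNP A1, its relative hnRNP A2/B1, hnRNP D (AUF1), which binds AU-rich elements and promotes mRNA decay, and the hnRNP D-like protein. Hnrnpa1, at chr15:103239943-103246698 on the plus strand, had 15 of 21 clusters enriched for Puf60 with exon 5, 14 of 18 for Puf60 without exon 5 and 10 of 16 for Rbm38. Its highest cluster was a different one in each table: 103242051-103242200 at a log2 fold of 2.55, 103246451-103246600 at 2.77, and the 1550 nt wide 103243951-103245500 at 2.87, in the authors' deposited tables. The Puf60 cluster that starts at 103246451, near the 3′ end, was enriched for both forms, and the Rbm38 cluster within it had 0.04 in the authors' deposited table. In this gene alone of the 10, the last listed cluster was enriched for Puf60 with exon 5 and not for Rbm38.

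Hnrnpa2b1, at chr6:51460434-51470048 on the minus strand, had 14 of 24, 12 of 22 and 18 of 31 clusters enriched, the only gene of the 10 with more enriched clusters for Rbm38 than for either form of Puf60. Its highest cluster lay in the same region in all 3 tables, at 51461686-51463535, 51461736-51463535 and 51462486-51463535. The log2 folds were 3.31 with exon 5, 2.89 without exon 5 and 4.07 for Rbm38 in the authors' deposited tables. These 3 clusters end at the same base and are 1850, 1800 and 1050 nt wide, so their shared ground is broad.

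Hnrnpd, at chr5:99955935-99979130 on the minus strand, had 8 of 15, 12 of 20 and 10 of 22 clusters enriched. Its highest Rbm38 cluster was 99961036-99961285, at 3.88 in the authors' deposited table. The highest Puf60 clusters lay farther from the 3′ end, at 99967336-99967385 with 2.90 for the form with exon 5 and at 99962286-99962435 with 3.26 for the form without it, in the authors' deposited tables. Hnrnpdl, at chr5:100033577-100039936 on the minus strand, had 6 of 10, 12 of 13 and 11 of 15 clusters enriched. Its highest Rbm38 cluster, 100034736-100035035, had 3.58, where the cluster with the same bounds had 1.67 for Puf60 with exon 5 and 0.71 for Puf60 without it, by the authors' deposited tables. The highest Puf60 clusters of Hnrnpdl lay next to it, at 100035236-100036035 with 3.13 for the form with exon 5 and 100035336-100036085 with 2.89 for the form without it, in the authors' deposited tables. In Hnrnpd and Hnrnpdl the highest Rbm38 cluster was thus nearer to the 3′ end than that of either form of Puf60. In Hnrnpd the last listed cluster lay 5225, 5300 and 5225 nt from the annotated 3′ end. Counts within 2000 nt of that end therefore hold none of its clusters. Whether the annotated end is the one used in these cells was not tested.

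Hnrnpc encodes the protein that packages nascent RNA as a tetramer and binds uridine tracts, where it is known to compete with U2af2. Lying at chr14:52073377-52104039 on the minus strand, the gene carried the highest Puf60 values of the 10. The 50 nt cluster 52077886-52077935 had a log2 fold of 5.09 for Puf60 with exon 5 and 5.51 for Puf60 without it, by the authors' deposited tables, with adjusted p of 6.82e-91 and 9.52e-113. The next 50 nt cluster, 52077786-52077835, had 4.32 with exon 5 and 5.09 without it, by the authors' deposited tables. A further high cluster for the form without exon 5, 52096386-52096435 at 4.39 in the authors' deposited table, lay 23033 nt from the 3′ end. Rbm38 had its highest value in Hnrnpc elsewhere, at 52074486-52074685 with 4.36, where the matched Puf60 clusters had -1.02 with exon 5 and -1.35 without it, by the authors' deposited tables. High values here sat on narrow clusters: enriched clusters covered 1.96%, 1.96% and 2.45% of the gene body, with 8 of 14, 9 of 24 and 7 of 13 clusters enriched.

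Hnrnpm, whose protein binds GU-rich RNA and regulates alternative splicing, had 4 enriched clusters of 7 listed in each table, across chr17:33646233-33685458 on the minus strand. Its highest Rbm38 cluster, 33646236-33646535, reached the last annotated bases of the gene and had 4.84 in the authors' deposited table. The matched Puf60 clusters within it were narrower. They had 0.07 with exon 5 at 33646336-33646385 and -0.43 without it at 33646286-33646435, by the authors' deposited tables. The highest Puf60 clusters were 33652436-33652485 at 2.73 with exon 5 and 33669186-33669235 at 3.72 without it, by the authors' deposited tables. No position in Hnrnpm was enriched in all 3 tables, the only gene of the 10 for which that held.

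Hnrnpu encodes the scaffold attachment factor SAF-A, a nuclear matrix protein that binds RNA and chromatin. Clusters were listed along much of chr1:178321108-178338891 on the minus strand, with 27 of 55 enriched for Puf60 with exon 5, 39 of 58 for Puf60 without exon 5 and 19 of 53 for Rbm38. Enriched clusters covered 24.7%, 47.2% and 16.0% of the gene body. The highest values were 3.48 at 178329786-178329985 with exon 5, 3.50 at 178322536-178322685 without exon 5 and 3.39 at 178336886-178336935 for Rbm38 in the authors' deposited tables. For Rbm38 this was the one gene of the 10 whose highest cluster lay toward the 5′ end, 15802 nt from the 3′ end.

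Hnrnph1 encodes a protein that binds runs of G and either promotes or represses exons. Across chr11:50375257-50386528 on the plus strand, 12 of 14, 14 of 17 and 9 of 18 clusters were enriched. Puf60 values were high over a continuous stretch: 50379451-50381450 had 4.15 with exon 5 and 50379451-50381650 had 3.47 without it, by the authors' deposited tables. The highest cluster of the form without exon 5 was 50383601-50383900 at 4.02, and its match with exon 5, 50383651-50383950, had 3.66 in the authors' deposited tables. The Rbm38 clusters matched to this site had 0.42 against the form without exon 5 and -0.21 against the form with it, in the authors' deposited table. Rbm38 was highest at the 3′ end of the gene instead, at 50386051-50386500 with 3.51 in the authors' deposited table.

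hnRNP K binds C-rich RNA and DNA through KH domains and acts in transcription, splicing and translation. Its gene, at chr13:58391132-58403343 on the minus strand, showed high values of Puf60 and of Rbm38 at separate places. Of its clusters, 22 of 27 were enriched for Puf60 with exon 5, 24 of 31 for Puf60 without exon 5 and 7 of 18 for Rbm38. The highest Puf60 clusters lay in the middle of the gene, at 58397336-58397535 with 4.37 for the form with exon 5 and at 58397936-58398135 with 3.79 for the form without it, in the authors' deposited tables. Rbm38 had 0.49 at 58397486-58397535, inside the first of these, in the authors' deposited table. At the 3′ end the order was turned: Rbm38 had 5.02 at 58391186-58391535, where the matched clusters had 0.00 with exon 5 and -0.30 without it, by the authors' deposited tables. The adjoining Rbm38 cluster 58391636-58392535 had 4.72, where the matched clusters had 0.62 with exon 5 and 0.03 without it, by the authors' deposited tables.

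hnRNP L binds CA-rich RNA and regulates alternative splicing, including that of its own transcript. At chr7:28808546-28822268 on the plus strand, Hnrnpl had 19 of 31 clusters enriched for Puf60 with exon 5, 17 of 29 for Puf60 without exon 5 and 14 of 31 for Rbm38. Both forms of Puf60 had their highest cluster at the same start, 28818401-28818750 at 3.54 with exon 5 and 28818401-28818700 at 3.09 without it, by the authors' deposited tables. The Rbm38 cluster 28821851-28822250 near the 3′ end had 3.96, where the matched Puf60 clusters had 2.03 with exon 5 and 0.10 without it, by the authors' deposited tables.

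**Figure D2:**
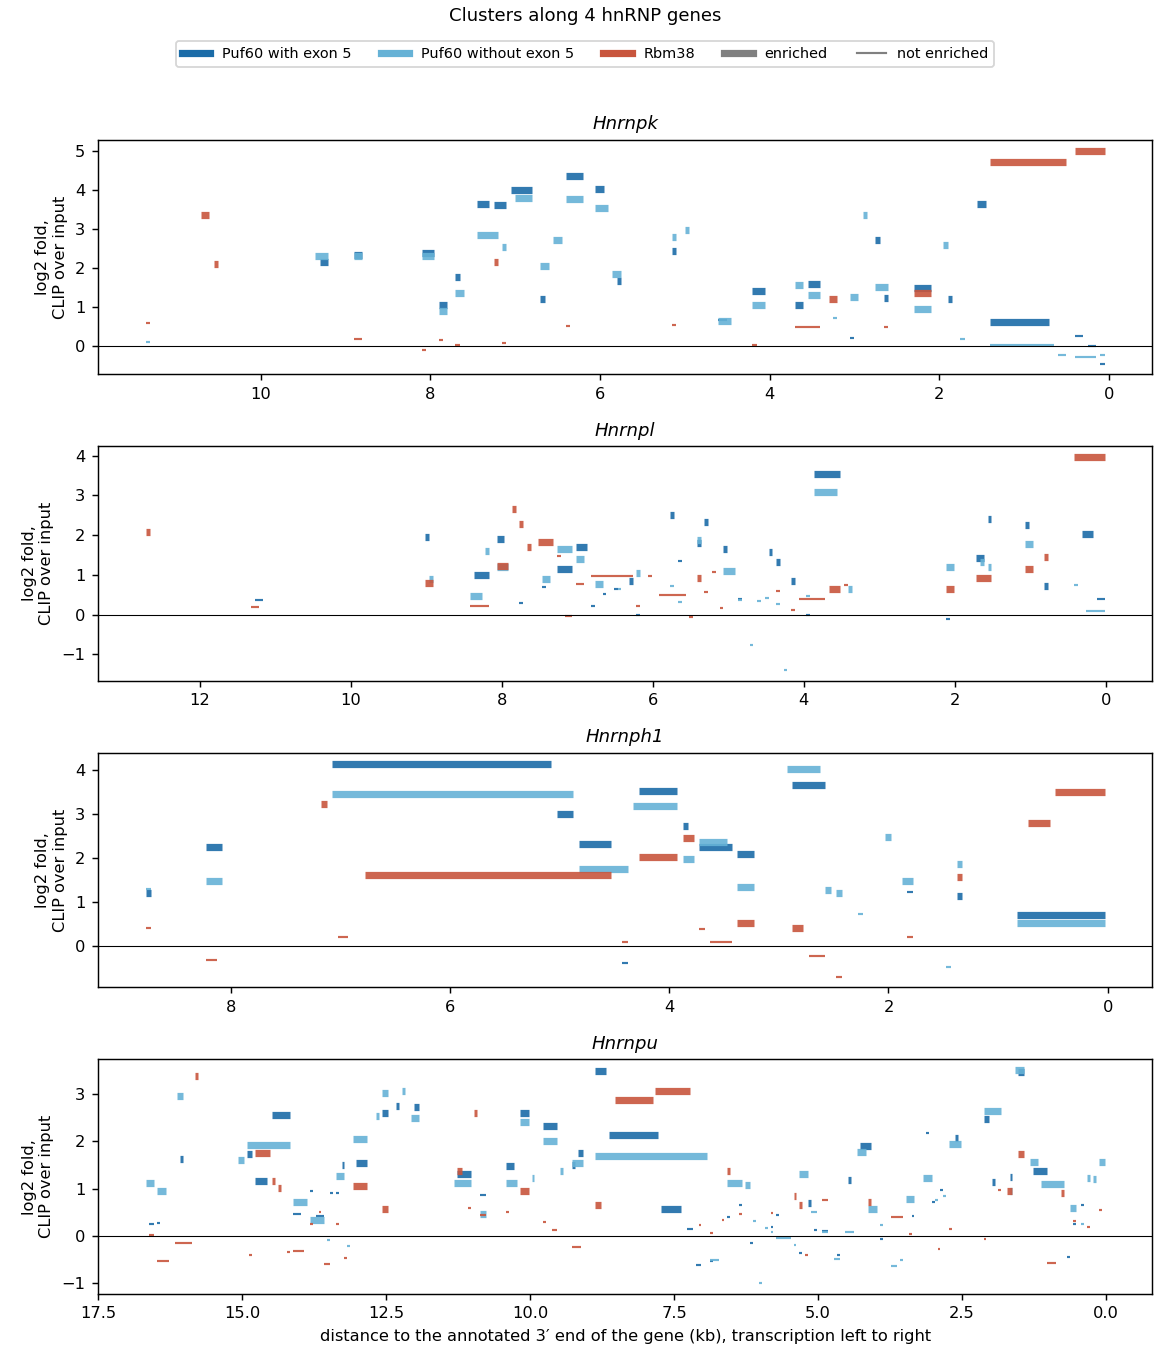
Clusters listed in the 3 tables along Hnrnpk, Hnrnpl, Hnrnph1 and Hnrnpu, by distance to the annotated 3′ end (kb, transcription left to right), with the log2 fold of CLIP over input on the vertical axis; each segment spans a cluster, thick where it was called enriched and thin elsewhere. In Hnrnpk and Hnrnpl the highest Rbm38 segment (5.02 and 3.96) ends the gene, while the highest ones of both forms of Puf60 lie farther inside.

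The isoforms of Puf60 had enriched clusters at largely shared positions in the hnRNP genes, as they did over all protein-coding genes. Of the 135 clusters enriched with exon 5, 104 (77.0%) overlapped one enriched without it, beside 63.0% over enriched clusters of all protein-coding genes with a known strand. A further 11 (8.15%, beside 6.93%) overlapped only clusters that were listed without being enriched, and 20 (14.8%, beside 30.1%) overlapped none. In the other direction, 98 of 157 (62.4%) overlapped, beside 61.0%. Matching each cluster to its mutual largest overlap gave 148 pairs, 64 of them with the same bounds, beside 13657 of all 20187 matched pairs. Bounds were thus the same less often in the hnRNP genes, and the part of this in the values below was not tested. Both members of the pair were enriched in 94 (63.5%, beside 43.7% over all 20187 matched pairs of the tables). The form with exon 5 alone was enriched in 11 (7.43%, beside 5.48%), the form without it alone in 23 (15.5%, beside 4.21%), and neither in 20 (13.5%, beside 46.6%). Over the 148 pairs the log2 folds correlated with a Pearson r of 0.857 and a Spearman rho of 0.830, beside 0.943 and 0.920 over all matched pairs; the points are clusters that share libraries, so no p is given.

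The difference between the isoforms was small at most of these positions. With exon 5 minus without exon 5, the median over the pairs was 0.19 with an SD of 0.62 between clusters, computed from the authors' deposited tables, beside 0.10 with an SD of 0.71 over all pairs. Of 128 pairs with an enriched cluster in either table, the form with exon 5 was higher by more than 1 in 9 (7.03%) and lower by more than 1 in 7 (5.47%), near the 9.11% and 6.63% of all such pairs in the tables. Medians per gene ran from -0.33 in Hnrnpm, on 2 pairs, and -0.28 in Hnrnpc to 0.34 in Hnrnpdl and 0.45 in Hnrnpl. The median of Hnrnpl thus leaned toward the form with exon 5, and that gene held a pair of the 3 largest such differences. In Hnrnpl, 28821951-28822100 had 2.03 with exon 5 and its match without exon 5 had 0.10, a difference of 1.94, in the authors' deposited tables. That match, 28822001-28822250, overlaps it only in part. Also in Hnrnpl, 28816501-28816550 had 2.50 with exon 5 and 0.72 without it, by the authors' deposited tables. In Hnrnpa2b1, 51468336-51468385 had 2.65 with exon 5 and 0.74 without it, by the authors' deposited tables. Of the 3 largest differences the other way, Hnrnpu held a pair. There, 178326386-178326435 had -0.36 with exon 5 and its wider match, 178326286-178326435, had 1.32 without exon 5, by the authors' deposited tables. Likewise, 178337136-178337185 had 1.63 with exon 5 and its wider match, 178337136-178337235, had 2.95 without it, by the authors' deposited tables. Hnrnpl gave the last of these 3, with -0.11 with exon 5 at 28820151-28820200 and 1.21 without it at the wider 28820151-28820250, by the authors' deposited tables. None of these differences has a replicate check, and where the bounds differ, the values compared do not cover the same bases.

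**Figure D3:**
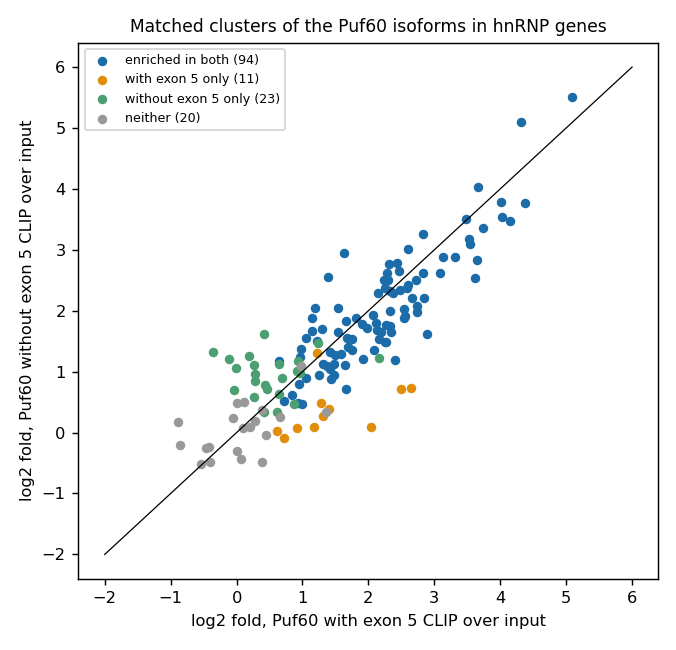
Log2 fold over input of clusters in the 10 hnRNP genes matched between the forms of Puf60, with exon 5 across and without exon 5 upward. Each of the 148 points is a matched pair, coloured by where it was enriched, and the diagonal marks equal values. Most points lie near the diagonal, with a median difference of 0.19.

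Rbm38 also met Puf60 at many positions of these genes, though its values there did not follow those of Puf60. Of the 109 clusters enriched for Rbm38, 61 (56.0%) overlapped one enriched for Puf60 with exon 5 and 65 (59.6%) one enriched for Puf60 without exon 5. Over all protein-coding genes these shares were 10.8% and 10.3%. Taken as a share of the Puf60 clusters, 58 of 135 (43.0%) with exon 5 and 59 of 157 (37.6%) without exon 5 overlapped an enriched Rbm38 cluster, beside 21.1% and 19.1% over all protein-coding genes. Enriched clusters covered up to 32.8% of the gene body for Rbm38, in Hnrnpa2b1 and Hnrnph1, and up to 41.3% and 47.2% for the forms of Puf60, in Hnrnph1 and Hnrnpu. How much overlap such wide cover alone would give was not tested. A stricter rule, in which the overlap had to fill 50% of both clusters, left 39 of 109 for each form. Of the 135 enriched clusters of Puf60 with exon 5, 51 overlapped one in both other tables. Of those 51, 12 were in Hnrnpu, 9 in Hnrnph1, 8 in Hnrnpa2b1 and 7 in Hnrnpa1. Neither this count nor that of the stricter rule was made over all genes.

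At matched positions the size of the Rbm38 enrichment did not follow that of Puf60. Over 122 pairs of Rbm38 and Puf60 with exon 5, the log2 folds gave an r of -0.00165 and a rho of 0.0581, and over 126 pairs with the form without exon 5 they gave -0.0837 and 0.0300. Over all matched pairs the values were as close to 0, at 0.0814 and 0.0151 with exon 5 and -0.00577 and -0.0979 without exon 5. Rbm38 minus Puf60, the median was -0.67 with exon 5 and -0.51 without exon 5, computed from the authors' deposited tables, beside 0.64 and 0.92 over all matched pairs of the tables. Both proteins were enriched in 48 (39.3%) and 52 (41.3%) of the pairs, beside 19.1% and 16.0% over all pairs. Rbm38 alone was enriched in 14 (11.5%) and 13 (10.3%), beside 35.6% and 40.9%, and Puf60 alone in 34 (27.9%) and 47 (37.3%), beside 17.1% and 16.3%. At matched positions in these genes Rbm38 was thus mostly lower than Puf60, where over all matched pairs it was mostly higher.

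Near the 3′ end Rbm38 reached its widest leads over Puf60, although most pairs where it was higher lay elsewhere. Of 48 pairs where Rbm38 was above Puf60 with exon 5, 16 lay within 2000 nt of the 3′ end, as did 13 of the 43 where it was above Puf60 without exon 5. The 4 and 6 pairs with Rbm38 higher by more than 3 on the log2 scale all lay there, and of the 18 and 20 with a lead over 1, 9 and 11 did. The highest Rbm38 cluster fell within 2000 nt of the annotated 3′ end in 7 of the 10 genes, against 0 for Puf60 with exon 5 and 2 for Puf60 without exon 5. These counts depend on the cut. The highest Rbm38 cluster of Hnrnpa1 just passed it, with its centre at 1973 nt. In Hnrnpdl and Hnrnpa2b1 the highest Puf60 clusters just missed it, at 2058 and 2176 nt with exon 5 and 2133 and 2201 nt without it. Hnrnpd could not count, as it had no cluster listed within 2000 nt. The last listed cluster of the gene was enriched in 8 genes for Rbm38, against 2 and 4 for the forms of Puf60. None of these counts was made over all genes, so they are not shown to be particular to the hnRNP genes. Within 2000 nt, 70.3% of the Rbm38 clusters in the hnRNP genes were enriched, against 44.4% of those farther away. For Puf60 with exon 5 these shares were 62.5% and 61.8%, and without exon 5 they were 59.1% and 67.2%. Over all protein-coding genes with a known strand, Rbm38 showed a wider contrast, at 82.5% within 2000 nt and 40.6% farther away, while both forms of Puf60 were less often enriched near the end, at 25.1% and 20.3%, than farther away, at 44.4% and 43.1%. In the hnRNP genes, Puf60 clusters near the 3′ end were thus enriched about as often as those elsewhere in the gene.

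Few of the called clusters lay in that stretch, however. For Rbm38, 26 of 109 enriched clusters (23.9%) were within 2000 nt of the 3′ end, beside 43.8% over all protein-coding genes. For Puf60 with exon 5 they were 25 of 135 (18.5%), beside 15.1%, and for Puf60 without exon 5 26 of 157 (16.6%), beside 15.2%. The median log2 fold of listed Rbm38 clusters was 1.37 within 2000 nt and 0.60 farther away, beside 2.58 and 0.61 over all protein-coding genes, in the authors' deposited table. Of the 26 enriched Rbm38 clusters near the end, 18 overlapped an enriched cluster of Puf60 with exon 5 and 16 one of Puf60 without exon 5. Among the 83 farther away, 43 and 49 did. Seen from Puf60 with exon 5, 16 of 25 enriched clusters near the end (64%) overlapped an enriched Rbm38 cluster, against 42 of 110 (38.2%) farther away. For Puf60 without exon 5 these were 13 of 26 (50%) and 46 of 131 (35.1%). Shared positions were thus not limited to either part of the genes, though among Puf60 clusters they were more frequent near the end. These shares by position were not computed over all genes.

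**Figure D4:**
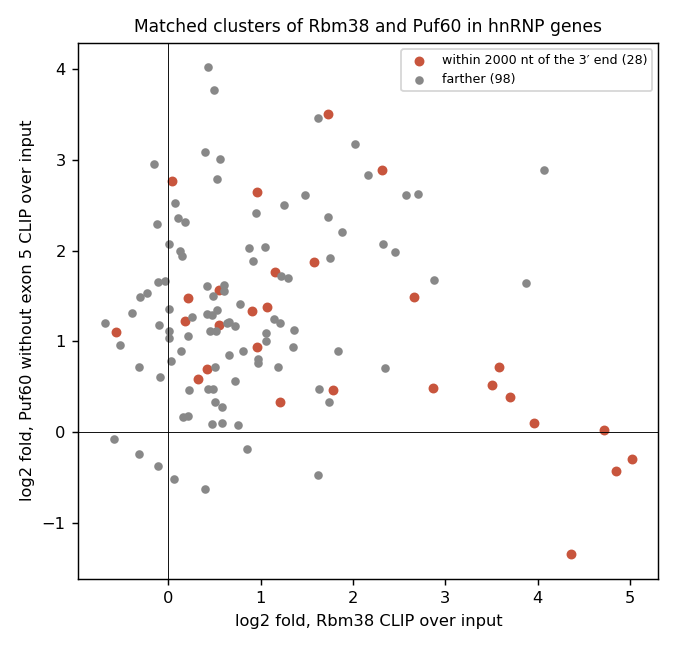
Log2 fold over input of clusters in the 10 hnRNP genes matched between Rbm38 and Puf60 without exon 5, 1 point per matched pair. The 28 pairs within 2000 nt of the 3′ end are red and the 98 farther away grey, with lines at 0 on both axes (log2 fold over input, Rbm38 across and Puf60 upward). Points of Hnrnpk, Hnrnpm, Hnrnpl and Hnrnpc near the 3′ end lie high for Rbm38 (5.02, 4.84, 3.96 and 4.36) and near or below 0.10 for Puf60.

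Further genes of the hnRNP family gave a lower share of enriched clusters for Puf60 than the 10 genes did. Over 16 such genes, listed by name with results of these data known, 75 of 166 clusters (45.2%) were enriched with exon 5, 79 of 186 (42.5%) without exon 5 and 116 of 208 (55.8%) for Rbm38. Over all clusters these shares were 39.3%, 36.2% and 51.2%, only a little lower. The genes with at least 1 enriched cluster numbered 10, 13 and 15 of 16, without a like count over all genes. Those with the most were Pcbp2, a poly(C)-binding relative of hnRNP K, with 23, 15 and 18, Hnrnpa3 with 12, 15 and 20, and Hnrnpr with 11, 17 and 10. Ptbp1, the polypyrimidine tract-binding protein and a splicing repressor in cells other than neurons, had 12, 9 and 7, and Hnrnpab had 2, 2 and 10. In Hnrnpr the highest values were 4.75 at 136329251-136329400 for Puf60 with exon 5 and 5.30 at 136340451-136340650 for Rbm38 in the authors' deposited tables.

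Picked after their values were seen, Hnrnpa0 and Pcbp1 are known as genes without introns. Hnrnpa0 had 0 of 7 clusters enriched with exon 5, 0 of 5 without exon 5 and 8 of 10 for Rbm38, and Pcbp1 had 0 of 4, 1 of 4 and 2 of 7. Few enriched Puf60 clusters were also found in Raly, with 0 of 5, 1 of 7 and 2 of 6, and in Hnrnpf, with 1 of 10, 1 of 14 and 8 of 22. The same held for Hnrnpab, with 2 of 13, 2 of 10 and 10 of 15, and for Rbmx, with 0 of 1 in each table. Hnrnph2 had no cluster listed with exon 5, 0 of 2 enriched without it and 4 of 4 for Rbm38. Hnrnpul2 had 0 of 2, 3 of 7 and 6 of 7. Whether the lack of introns has a part in such counts was not tested. The highest Rbm38 cluster of Hnrnpa0, 58125886-58126235 at 4.39 in the authors' deposited table, lay 181 nt from its 3′ end. The stretches below set the start region of Pcbp2, with an enriched cluster for both forms of Puf60 (3.72 with exon 5 and 3.95 without it in the authors' deposited tables) and none listed for Rbm38, beside that of Hnrnpa0, enriched for Rbm38 alone (1.73 in the authors' deposited table). Capitals mark the longest run of C or T in the first, at chr15:102470601-102470630 on the plus strand, and GTGTG in the second, at chr13:58128522-58128551 on the minus strand. Hnrnpf, likewise picked after its values were seen and at chr6:117906801-117906830 on the plus strand, is set beside them with its longest run of C or T in capitals.
Pcbp2 start region: cctccgcccgcccgcccgCCCTCCgccgcc
Hnrnpa0 start region: tGTGTGgtgtcccgataggggagcggaggt
Hnrnpf start region: tccgtcgtggaaggaggactgcgCCTCgtc
Of the 30 bases of Pcbp2, 24 are C or T, and 32.4% of the promoter windows hold a stretch with as many. The stretch of Hnrnpf holds no GTGTG and 15 C or T, and its cluster was enriched for Puf60 without exon 5, at 1.73, and for Rbm38, at 2.40, in the authors' deposited tables. Of this gene's clusters, 31 of 150 nt for Rbm38 and 31 of 50 nt for Puf60 without exon 5 lay in the promoter window, and the rest was not read. In the stretches shown, enrichment thus did not go with the marked letters in every case.

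**Figure D5:**
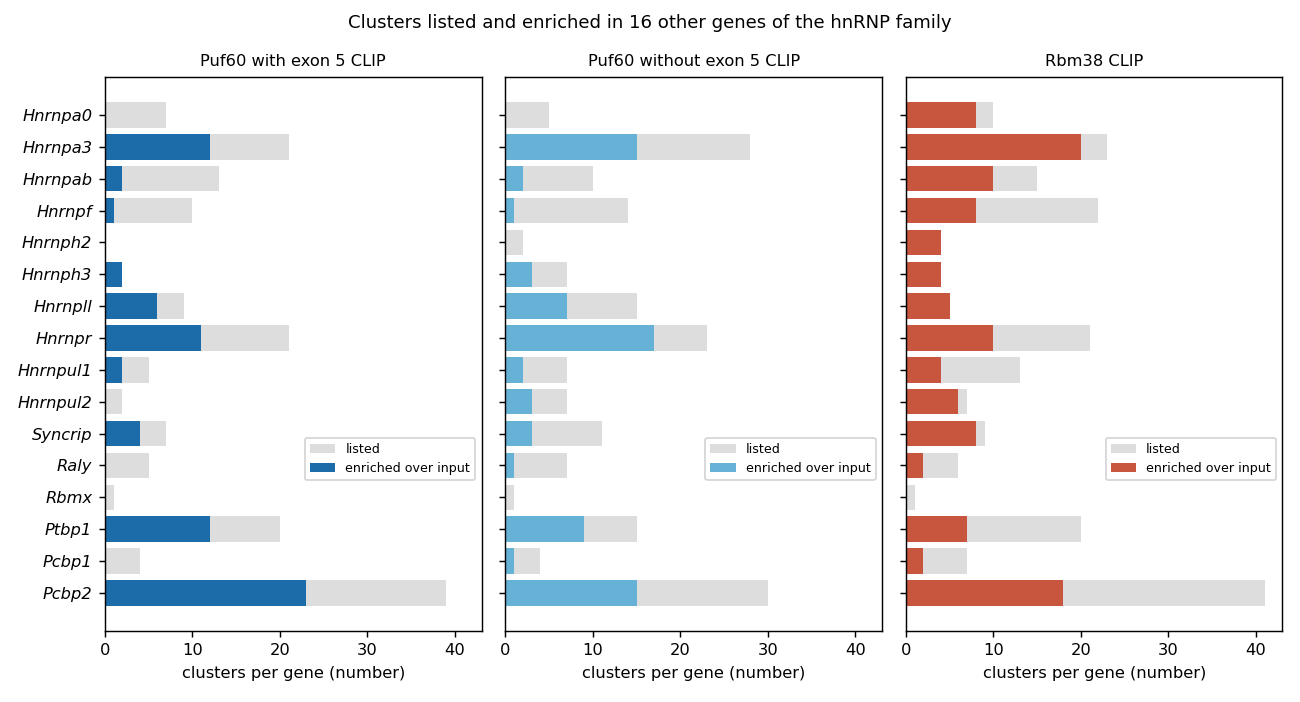
Clusters per gene in 16 further hnRNP family genes in the 3 tables. The horizontal axis counts clusters, each pale bar stands for all listed clusters and the coloured part of it for those called enriched over input. Pcbp2 and Hnrnpa3 have many enriched clusters in each table, while Hnrnpa0 has none for either form of Puf60 and 8 for Rbm38.

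The tables also list transcripts of the neuroblast type. Of 8 markers, 6, 5 and 5 genes had a listed cluster, with Map1b and Tubb3 in every table and Gata3 and Isl1 at 0 in all. Of 6 markers of other cells, 0, 0 and 3 were listed, with 1 cluster each for Aqp4, Ptprc and Col1a1 in the Rbm38 table.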

How the data were processed

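Puf60 with exon 5, Puf60 lacking it and Rbm38, each Flag-tagged, were profiled in N2A cells by 3 CLIP libraries and 1 size-matched input, 12 samples in all. The authors deposited 1 table of clusters per protein, in which they compared CLIP libraries with input and gave the log2 fold change, per the file headers. It was read as CLIP over input, a direction the column name alone does not state. Beside it stand a deposited p-value and adjusted p-value, per the file headers. The submitters' processing notes name TopHat, edgeR and the builds NCBIM37 and mm10, without roles; for cluster calling and the handling of replicates the method is not given in the sources used here. Since the tables hold comparisons and 0 further columns, depth, replicate spread and whether replicates came from separate cultures are unknown, and no test was run.

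An enriched cluster is one with an adjusted p under 0.05 in the deposited table. Starts lie on a grid of 50 nt, and an offset of 0 was read as the plus and 35 as the minus strand, an inferred rule. Gene bodies, starts and sequences are RefSeq's on GRCm38.p6, without exons, and coordinates are 1-based. All 10 genes were matched by symbol; 2 of the 16 further genes took their strand from their clusters. A further gene of that list is not reported here. Overlap needed 1 nt on the same strand. Promoter windows run from 250 nt before to 50 nt after the start. The text names all 10 genes with the highest enriched cluster per table, the 3 largest isoform differences each way, and up to 4 further genes per table with the most enriched clusters. The genes and lists were chosen with earlier results of these data known. Alternatives concerned the threshold, the adjustment, a minimum fold, strand, overlap and the 3′ window. Scripts ran in Python 3.11.15 with pandas 2.3.3, numpy 2.4.6 and matplotlib 3.10.9, and overlap and matching were tested on simulated clusters.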

Additional observations from a re-analysis of the deposited data

How the results depend on the processing

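Of 30 alternative values over 11 results, 25 stayed within 1.5 times the reported value and 5 did not, and none reversed. These alternatives recounted the hnRNP genes alone. The shares over all clusters were not recomputed, so a comparison with them could not reverse here. Within 1000 nt of the 3′ end, in place of 2000, the enriched clusters numbered 8 for Puf60 with exon 5, 10 for Puf60 without exon 5 and 12 for Rbm38, since the window is smaller. Where the overlap had to fill 50% of both clusters, 39 of 109 enriched Rbm38 clusters overlapped one of Puf60 with exon 5, and 39 one of Puf60 without exon 5. The counts of enriched clusters ran from 119 to 161, 128 to 167 and 79 to 142 over all alternatives, lowest with a log2 fold of at least 1 and highest with Benjamini-Hochberg adjustment of the deposited p-values. No paired analysis was possible because the tables hold no values per library, and leaving out each replicate could not be run for the same reason. Without read numbers, what depth limits is unknown.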
